A study of Mus musculus with 4 samples.

Results

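The proneural and intermediate progenitor regulators are 9 genes chosen by name, Neurog1, Neurog2, Neurod1, Neurod4, Eomes, Insm1, Btg2, Gadd45g and Hes6. Each had exactly 1 entry on chromosomes 1 to 19 among the 55599 entries of the deposited table. They were measured in neurospheres, the floating balls of neural progenitors that grow in culture, started from cortex of C57BL/6 embryos (embryonic day 12.5) and sampled at passage 3. The 2 groups were wild type (WT) and LncBAR-KO (KO, a knockout of the long noncoding RNA LncBAR), with 2 libraries each and the same strain, stage and passage. The labels give neither the KO allele nor the sex of the embryos. Whether replicates are different embryos, different cultures or one culture split is unstated, so p-values reflect only the scatter of these libraries, possibly a technical one. Cells passaged in culture need not keep the mix of cell types of the cortex they came from.

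In the developing cortex, radial glia divide to give intermediate progenitors, which divide a few more times and yield neurons. Proneural factors of the basic helix-loop-helix (bHLH) family start this step: Neurog1 and Neurog2 act first, and Neurod1 and Neurod4 act later in the same cascade. They switch on Notch ligands, whose signal to neighbouring cells keeps those cells as progenitors through the Hes repressors. Eomes, a T-box factor also called Tbr2, is the standard marker of cortical intermediate progenitors. Insm1 is a zinc finger factor that promotes their formation, Btg2 (Tis21) is an antiproliferative gene switched on in neuron-producing divisions, Gadd45g is a growth arrest gene of differentiating progenitors, and Hes6 is an atypical Hes protein that opposes Hes1.

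The libraries held 17244057 to 18280445 counts each. In CPM, counts scaled to library size with edgeR's TMM factors, genes differed by a median of 0.11 on the log2 scale between the 2 WT libraries and 0.13 between the 2 KO libraries. The most distant pair was WT replicate 1 and KO replicate 2, at 0.16. The closest pair also crossed the genotypes, WT replicate 1 and KO replicate 1, at 0.098. WT replicate 2 and KO replicate 1 stood at 0.108, so the libraries did not group by genotype on this measure. No entry carried the name LncBAR. Its level is not analysed here, which leaves the KO label without a check on its own target. Xist, the RNA of the inactive X chromosome, reached 36766 and 31563 counts in the WT pair but 7 and 4 in the KO pair. The Y-linked genes Ddx3y, Eif2s3y, Kdm5d and Uty had 0 counts in WT and 517 to 1847 in KO. Genotype and sex-chromosome content cannot be told apart in any comparison of these libraries.

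In every library, 4 of the 9 genes lay above 1 FPKM, the mean level required for testing, and 5 lay below it. Levels between genes are compared as FPKM, the deposited values scaled to gene length and library size. Averaged over the 4 libraries they ran from Gadd45g at 157 FPKM through Hes6 at 72.9, Btg2 at 56.2 and Insm1 at 6.96 to Neurod1 at 0.898, Neurog2 at 0.366, Neurod4 at 0.122, Eomes at 0.0715 and Neurog1 at 0.0085. Among neighbours in this order, only Neurod4 and Eomes had overlapping ranges over the 4 libraries. The step from Insm1 to Neurod1, across 1 FPKM, was 7.75-fold, and that from Btg2 to Insm1 was 8.08-fold. Among 21836 protein-coding genes ranked by mean FPKM, Gadd45g was number 200, Hes6 number 517, Btg2 number 720 and Insm1 number 6354. Neurod1 stood at number 11109, Eomes at 14147 and Neurog1 at 16216, in a ranking where 4995 genes were listed at 0 throughout. In bulk RNA, fewer cells of a type and less RNA per cell cannot be told apart, so these levels do not say how many cells expressed a gene.

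**Figure D1:**
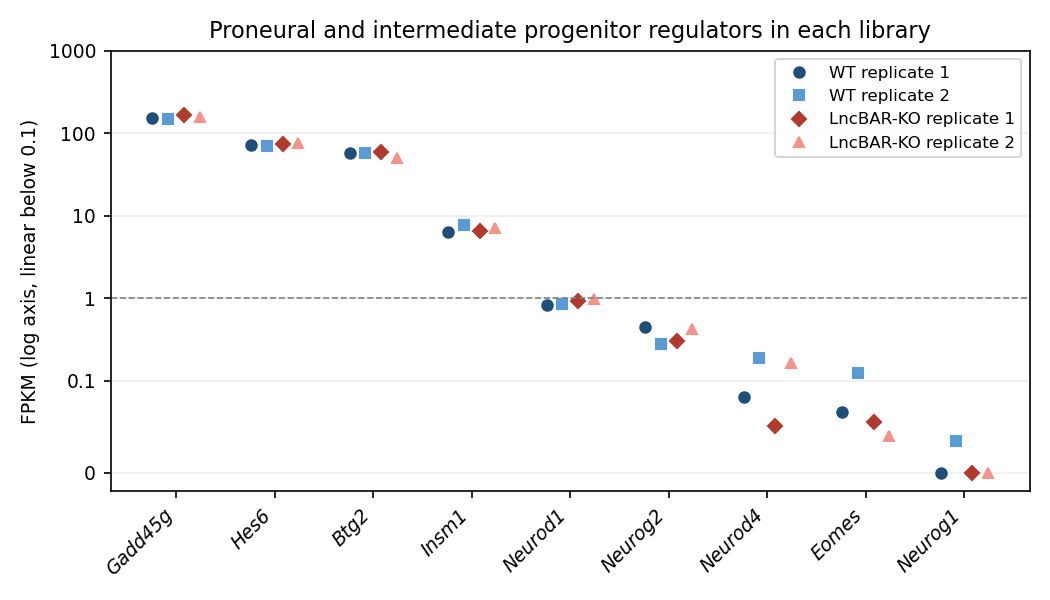
FPKM of the 9 genes in each of the 4 libraries, on a log axis that is linear below 0.1. Points are single libraries and the dashed line marks 1 FPKM, the mean level required for testing; Gadd45g, Hes6, Btg2 and Insm1 lie above it in all 4 libraries and the other 5 genes below it in all 4.

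The neurogenins, which stand at the start of the cascade, were barely detected. Neurog1, on chromosome 13 from 56250478 to 56252163 (mm10) and with 1 exon, had 1 count in all, in WT replicate 2. A count of 0 was taken to allow up to 3 counts per library, a fixed floor and not one of the exact 95% intervals below. For Neurog1 this floor is 0.10 FPKM on average, and no fold change is given. Neurog2, on chromosome 3 from 127633135 to 127635631, had 18 and 11 counts in the WT libraries, against 12 and 17 in KO. The highest and lowest of these libraries were both WT, and the genotypes overlapped. Each genotype summed to 29 Neurog2 counts, with an exact 95% Poisson interval of 19.4 to 41.6. Such intervals, here and for the other low genes, cover counting error alone, because the counts of a genotype are summed and variation between its libraries is left out. Reads lacking molecular identifiers can also be copies of one molecule, which the intervals do not cover either.

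Among the later bHLH factors, Neurod1 was the most abundant of the 5 low genes and Neurod4 ranged from 3 to 11 counts per library. Neurod1, on chromosome 2 from 79452521 to 79456751, had 41 counts in each WT library, against 44 and 48 in KO, or 0.831, 0.862, 0.921 and 0.977 FPKM. The KO libraries were both above the WT libraries in CPM, but the KO to WT ratio of summed counts was 1.11, with an exact 95% interval of 0.812 to 1.51. Neurod1 lies within the span of Cerkl on the same strand, which had 1, 6, 0 and 1 counts in the same order. No source used here says how reads in the shared stretch were assigned. Neurod4, on chromosome 10 from 130268152 to 130280240, had 5 and 11 counts in the WT libraries, against 3 and 10 in KO. Replicate 2 was the higher library in both genotypes, and the summed ratio for Neurod4 was 0.800 (exact 95% interval 0.354 to 1.77).

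Eomes, the marker of intermediate progenitors, was at the limit of detection. Its counts, on chromosome 9 from 118478212 to 118486132, were 5 and 9 in WT and 4 and 3 in KO. Both KO libraries were below both WT libraries, yet the summed ratio of 7 to 14 counts was 0.493 with an exact 95% interval of 0.168 to 1.30. A lower Eomes level in KO was therefore not detected at this depth, and the interval is too wide to exclude one. Over all 29222 entries with at least 1 count, 13.7% had both KO libraries above both WT libraries, as Neurod1 did, and 16.8% had both below, as Eomes did. The antisense gene Gm33460 overlaps the 3′ end of Eomes and had 1 count, in KO replicate 2; without strand, reads of the shared stretch could belong to either gene. Summed, the 5 low genes came to 69 and 73 counts in the WT libraries, against 63 and 78 in KO.

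The differentiation genes that act beside or after the proneural factors were present in every library. Gadd45g, on chromosome 13 from 51846678 to 51848468 with 4 exons, had 3250 and 3017 counts in the WT libraries, against 3432 and 3362 in KO. These are 153 and 148 FPKM in WT and 167 and 159 FPKM in KO. The 2 KO libraries were both above the WT libraries, and WT replicate 2 was the lowest of the 4. Hes6, on chromosome 1 from 91411483 to 91414038, had 2370 and 2221 counts in the WT libraries, against 2322 and 2451 in KO, or 72.5, 70.5, 73.3 and 75.3 FPKM. Its spread over the 4 libraries was the narrowest of the 9 genes, with a highest FPKM 1.07 times the lowest, and in CPM its KO libraries lay above its WT libraries by a margin smaller than that between the WT libraries themselves.

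Btg2 and Insm1 overlapped between the genotypes. Btg2, on chromosome 1 from 134075170 to 134079120, had 2897 and 2727 counts in the WT libraries, against 2818 and 2507 in KO, or 58.4, 57.1, 58.7 and 50.8 FPKM. KO replicate 2 was the one low library for Btg2, and KO replicate 1 was the highest. Insm1, on chromosome 2 from 146221921 to 146225020 with 1 exon, had 354 and 424 counts in the WT libraries, against 358 and 395 in KO, or 6.32, 7.85, 6.59 and 7.08 FPKM. The highest and the lowest Insm1 library were both WT. No other entry of the table overlaps Gadd45g, Hes6, Btg2, Insm1, Neurog1, Neurog2 or Neurod4, and all 9 genes have the same coordinates in GENCODE M21.

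The comparison of KO with WT asks whether loss of LncBAR changes the expression of these regulators, and none of the 4 that could be tested passed the test. Testing required a mean of at least 1 FPKM, which left Gadd45g, Hes6, Btg2 and Insm1. In edgeR's quasi-likelihood test 0 of these 4 passed an adjusted p of 0.05, while 9 of all 12997 genes tested did (0.0692%). At an unadjusted p under 0.05 the count was also 0 of 4, against 5.92% of all genes tested (2.98% higher and 2.95% lower in KO). DESeq2 called 0 of the 4 and 0.0923% of all genes, and limma on log2(FPKM + 1) called 0 of the 4 and 0.0308% of all genes. Of the 9 genes called in edgeR, 8 lie on the X or Y chromosome and 1 on an assembly patch or scaffold.

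The fitted differences were small, and their intervals bound what these libraries can show. Gadd45g averaged 179 ± 5.36 CPM over the WT libraries and 193 ± 7.56 CPM over the KO libraries (mean ± SD, n = 2 each), a log2 fold change of 0.11 ± 0.08 (SE; edgeR adjusted p = 0.848). Its 95% interval runs from a fold of 0.955 to 1.22. Hes6 stood at 131 ± 3.05 CPM in WT against 136 ± 1.85 in KO, a log2 fold change of 0.05 ± 0.08 (edgeR adjusted p = 0.930), with an interval of 0.918 to 1.17. Btg2 stood at 161 ± 3.23 CPM in WT against 151 ± 16.2 in KO, a log2 fold change of -0.08 ± 0.09 (edgeR adjusted p = 0.892), with an interval of 0.820 to 1.09. Insm1 stood at 22.2 ± 3.33 CPM in WT against 21.4 ± 0.961 in KO, a log2 fold change of -0.06 ± 0.13 (edgeR adjusted p = 0.955), with an interval of 0.789 to 1.17. Insm1 has the fewest counts of the 4 genes and the widest interval.

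Direction was mixed and depended on single libraries for 2 genes. The log2 fold change was positive for 2 of the 4 genes and negative for 2, with a median of -0.0037. Over all 12997 genes tested it was positive for 6626 and negative for 6371, with a median of 0.0030. In CPM, Gadd45g and Hes6 had both KO libraries above both WT libraries, as 18.1% of all genes tested had. None of the 4 had both below, as 18.7% of all genes had, so 2 of 4 did not overlap against 36.8% of all genes. Without KO replicate 2 the log2 fold change of Btg2 turned from -0.08 to 0.02, and without WT replicate 2 that of Insm1 turned from -0.06 to 0.10. The authors' deposited table gives log2 fold changes of 0.12 for Gadd45g, 0.06 for Hes6, -0.08 for Btg2 and -0.05 for Insm1, each with an adjusted p of 0.99988. The same table gives 0.16 for Neurod1, 0.0017 for Neurog2, -0.32 for Neurod4 and -1.0 for Eomes, with adjusted p of 0.99988 for Neurod1 and 1 for the other three.

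**Figure D2:**
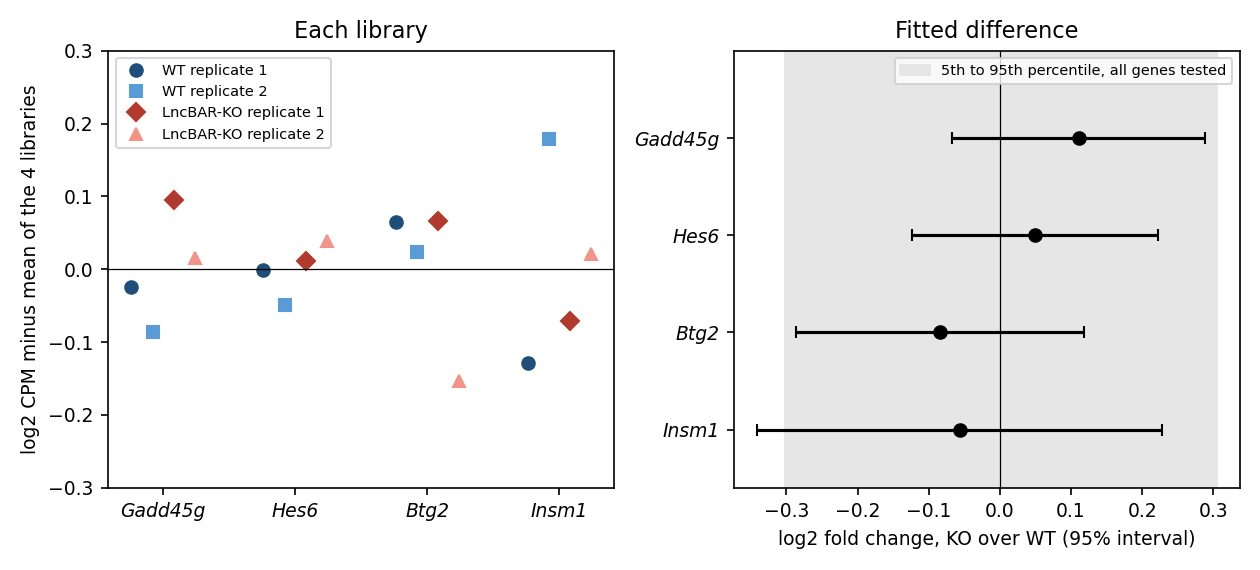
Left, each library's log2 CPM minus the mean of the 4 libraries for the 4 tested genes; right, the fitted log2 fold change of KO over WT with its 95% interval from edgeR, over a grey band from the 5th to the 95th percentile of all genes tested (-0.30 to 0.30). All 4 intervals include 0, KO replicate 2 is the low point of Btg2, and WT replicate 2 is the high point of Insm1.

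Other bHLH factors ranged from abundant to absent. Olig2, a bHLH factor of the oligodendrocyte lineage and of ventral progenitors, stood at 164 and 177 FPKM in WT and 174 and 178 FPKM in KO. Per length, Olig2 was 366 to 624 times Neurog2 in single libraries. Its log2 fold change was 0.04 ± 0.08 (edgeR adjusted p = 0.944). Of 7 further factors, Atoh1, Neurog3, Neurod2, Neurod6, Bhlhe22, Nhlh1 and Nhlh2, none reached a mean of 1 FPKM. Neurod2 had 3 to 7 counts per library, Neurod6 had 1 to 5, and Neurog3 had 0 in all 4 libraries. Neurod2 and Neurod6 are neuronal factors that follow Neurod1 in cortical neurons.

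**Figure D3:**
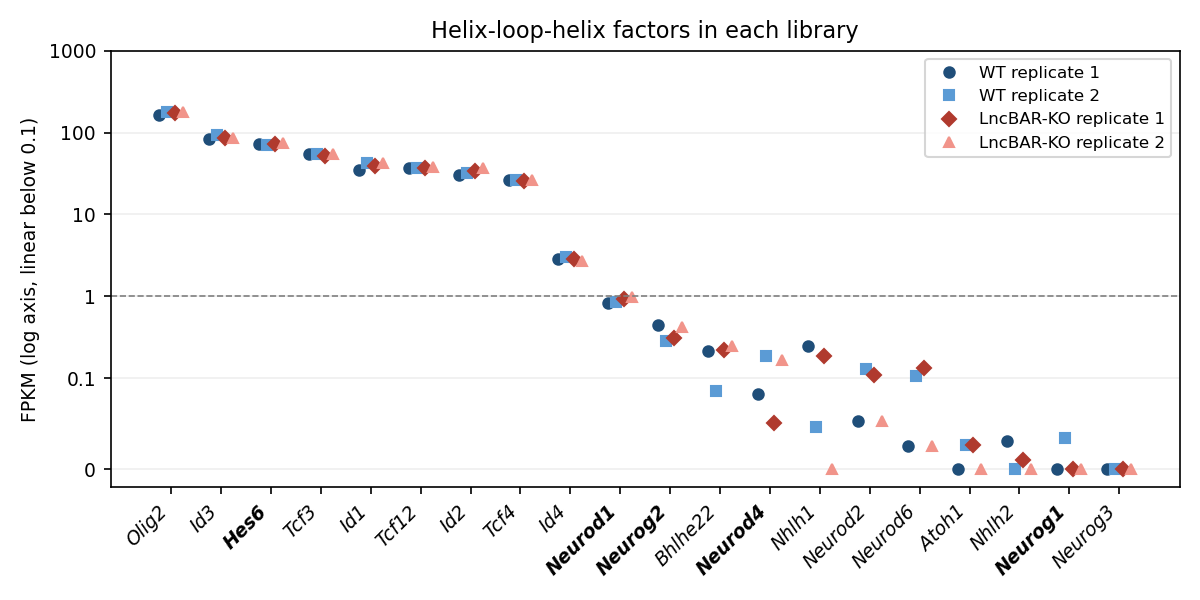
FPKM of helix-loop-helix factors in each library, with Neurog1, Neurog2, Neurod1, Neurod4 and Hes6 in bold; the axis is logarithmic and linear below 0.1, and the dashed line is 1 FPKM. Olig2, the E proteins, the Id proteins and Hes6 lie above the line, while the neurogenins and all Neurod genes lie below it.

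The partners that proneural factors need for DNA binding, and the proteins that sequester those partners, were all expressed. The E proteins Tcf3, Tcf4 and Tcf12 averaged 54.0, 26.0 and 37.4 FPKM over the 4 libraries. Id proteins bind E proteins and block them. Id3 was the highest at 87.4 FPKM, and Id2 had the smallest p of the list, with a log2 fold change of 0.18 ± 0.08 (edgeR adjusted p = 0.811). None of the 7 E and Id genes passed the test in either direction, and their median log2 fold change was -0.02.

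Of the Notch ligands, receptors and repressors that surround the proneural genes, 0 of 12 passed in either direction. The log2 fold change was negative for 8 and positive for 4, with a median of -0.14, where 6371 of all 12997 genes tested were negative. In 3 of the 12 both KO libraries lay below both WT libraries, beside 18.7% of all genes. The receptor gene Notch1 had the smallest p. It stood at 25.5 and 22.5 FPKM in WT and 22.7 and 17.3 FPKM in KO, a log2 fold change of -0.27 ± 0.12 (edgeR adjusted p = 0.811). KO replicate 2 was the lowest library for Notch1, as for Btg2, and KO replicate 1 lay between the WT libraries. How many of all genes were lowest in KO replicate 2 was not counted, so such remarks, here and below, have no background share. Lfng, which modifies Notch receptors, had the highest level at 77.2 FPKM and a log2 fold change of 0.02 ± 0.09 (edgeR adjusted p = 0.973). Dll1 and Dll3, ligands that proneural factors switch on and which were singled out after their values were seen, averaged 34.8 and 15.3 FPKM, and KO replicate 2 was the lowest library for both. Hes6 stood 1.94 to 2.55 times above Hes1 per length and 9.30 to 20.8 times above Hes5, with the lowest ratio of each pair in WT replicate 2.

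Genes known as targets or later steps of the proneural cascade were unevenly present. Of 17, 10 reached the filter and 0 passed the test. At an unadjusted p under 0.05, 1 of the 10 was higher and 2 were lower in KO, beside 2.98% and 2.95% of all genes tested. Rnd3, a small GTPase that acts in neuron migration, had the smallest p, at 27.4 and 23.95 FPKM in WT and 30.6 and 32.0 FPKM in KO (log2 fold change 0.28 ± 0.09, edgeR adjusted p = 0.811). Sox4, a transcription factor of differentiating neural cells, had the highest level at 204 FPKM and a log2 fold change of -0.10 ± 0.08 (edgeR adjusted p = 0.852). The median of the 10 genes was -0.02.

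Other intermediate progenitor markers also lay on both sides of 1 FPKM. Of 7 genes, 3 were tested and 0 passed. Rhbdl3, a rhomboid family gene, had the smallest p, at 8.85 and 8.23 FPKM in WT and 7.41 and 6.66 FPKM in KO (log2 fold change -0.29 ± 0.10, edgeR adjusted p = 0.811). Of the 3 tested, only Rhbdl3 had both KO libraries below both WT libraries in CPM, as 18.7% of all genes tested had. Sstr2, under the filter and so untested, ran the opposite way. Its KO replicates 1 and 2 reached 0.773 and 0.596 FPKM, while neither WT library exceeded 0.439 FPKM. Tmem158 was the most abundant at 29.7 FPKM, with a log2 fold change of 0.02 ± 0.10 (edgeR adjusted p = 0.977). Ppp1r17, a marker of intermediate progenitors singled out after its values were seen, had 0 to 6 counts per library.

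Within their own families, Gadd45g, Btg2 and Insm1 stood above the paralogs listed. Gadd45g was 30.9 to 38.5 times Gadd45a and 4.33 to 5.30 times Gadd45b in FPKM in single libraries. Btg2 was 1.54 to 1.77 times Btg1 and 5.15 to 6.33 times Btg3, with the lowest ratio of each in KO replicate 2. Insm1 averaged 6.96 FPKM and its paralog Insm2 0.138 FPKM, with 2 to 9 counts per library for Insm2. Among the 9 paralogs 6 were tested and 0 passed. Btg1 had the highest level and a log2 fold change of 0.06 ± 0.08 (edgeR adjusted p = 0.922), and Tob2 had the smallest p, at -0.16 ± 0.11 (edgeR adjusted p = 0.839).

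Btg2 and Gadd45g also answer to stimuli outside neurogenesis, Btg2 as a p53 target and immediate early gene and Gadd45g as a stress gene, so lists of both responses are given beside them. The 10 p53 targets had 9 positive log2 fold changes and a median of 0.13, where 6626 of all 12997 genes tested were positive. None passed after adjustment, and 2 of 10 were higher at an unadjusted p under 0.05, beside 2.98% of all genes. In 6 of 10 both KO libraries lay above both WT libraries, beside 18.1% of all genes. Ccng1 had the smallest p (0.23 ± 0.08, edgeR adjusted p = 0.811), and Cdkn1a, the most abundant at 166 FPKM, was at 0.16 ± 0.08 (edgeR adjusted p = 0.813). The immediate early genes were higher in replicate 1 than in replicate 2 of both genotypes, with a summed level of 2834 and 2187 CPM in WT and 2771 and 2192 CPM in KO. Of these, 8 of 10 were tested and 0 passed. Atf3 had the smallest p (0.26 ± 0.13, edgeR adjusted p = 0.811) and Nr4a1 the highest level (0.07 ± 0.10, edgeR adjusted p = 0.919). Btg2 itself stood at 163, 158, 163 and 140.0 CPM in that order, and the part of either response in its values, or in those of Gadd45g, was not tested.

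**Figure D4:**
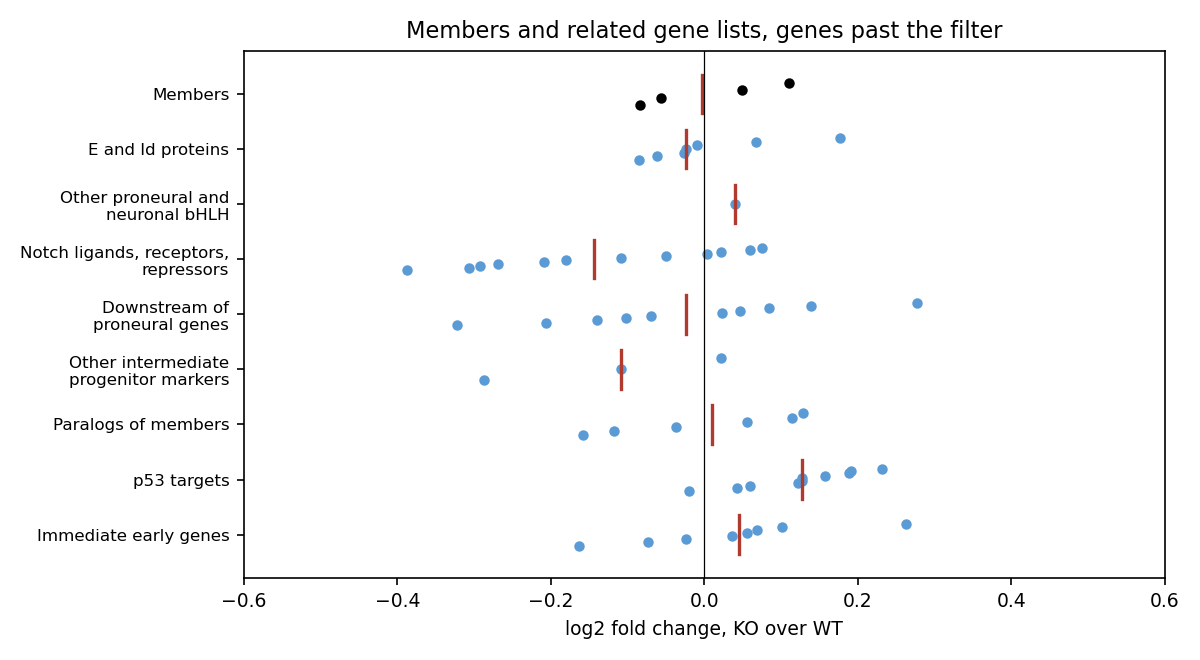
Log2 fold change of KO over WT for each gene past the filter, by list, with red bars at the list medians and the 4 tested regulators in black. The regulators lie between -0.08 and 0.11, the Notch list has a median of -0.14 and the p53 targets one of 0.13, and no gene shown passed the test.

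The markers of radial glia varied widely in level, and most neuron markers were low. All 8 radial glia genes were tested with 0 called, and 4 had a positive and 4 a negative log2 fold change (median 0.0032). They ranged from Pax6 at 4.10 and Hes5 at 5.52 to Vim at 838 and Fabp7 at 1458 FPKM on average. The 8 together summed to 2648 and 2756 FPKM in WT and 2847 and 2956 FPKM in KO. Most of this sum was Fabp7 and Vim. Fabp7 alone stood at 1340 and 1397 FPKM in WT and 1482 and 1614 FPKM in KO, so the sum does not speak for the other genes. Of 7 neuron markers only Tubb3 and Map2 reached a mean of 1 FPKM, and Stmn2 had 1 to 6 counts per library. The cortical label was checked with 5 dorsal forebrain genes, which summed to 55.3 and 54.1 FPKM in WT and 53.3 and 49.9 FPKM in KO. Emx1, a defining gene of dorsal cortex, was close to absent, with 1 to 6 counts per library. The 5 ventral forebrain genes summed to 4.91 and 3.42 FPKM in WT and 2.64 and 2.32 FPKM in KO. Both sums were lower in both KO libraries than in both WT libraries, and none of their genes passed the test. In CPM, 18.7% of all single genes tested had both KO libraries below both WT libraries. At an unadjusted p under 0.05 in edgeR, 1 of 4 dorsal genes tested (Pax6) and the 1 ventral gene tested (Gsx2) were lower in KO. The share over all genes tested was 2.95%. Nkx2-1 was at 0 throughout. The 5 oligodendrocyte lineage markers summed to 706 to 768 FPKM, nearly all of it Olig1 and Olig2. The log2 fold change was 0.06 for Olig1 and 0.04 for Olig2, and -0.34 for Sox10, -0.16 for Pdgfra and -0.26 for Mbp. The last 3 were lowest in KO replicate 2, where Olig1 and Olig2 were highest in FPKM, and 0 of the 5 passed. The 5 astrocyte markers all had negative log2 fold changes, with a median of -0.18, and 0 passed. Over all 12997 genes tested 6371 were negative. In 1 of the 5 both KO libraries lay below both WT libraries, beside 18.7% of all genes. Among them Gfap was at -0.30, Aldh1l1 at -0.27 and Sparcl1, the most abundant, at -0.0051. Gfap, Aldh1l1, Aqp4 and S100b too were lowest in KO replicate 2, whereas Sparcl1 was highest there in FPKM. Of 17 markers of microglia, endothelium, mesenchyme and red blood cells, 5 were at 0 in all 4 libraries and the highest averaged 0.437 FPKM. The part of these marker levels in the values of the 9 regulators was not tested.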

How the data were processed

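Polyadenylated RNA was sequenced in 150 bp read pairs with a kit that keeps no strand, per the labels' protocols. The tools named, per the submitters' processing notes, are TopHat2 2.1.1, Cufflinks 2.2.1 and cutadapt 1.16, with build mm10. For the read counter and for multiply mapped reads: not given in the sources used here. The authors deposited unnormalized counts and FPKM values per gene, the gene length in bases, and their own comparison with a mean signal per genotype, a log2 fold change and p-values.

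From the counts, edgeR 4.0.16 (R 4.3.3) was fitted to all 4 libraries with TMM scaling and genotype as the only factor, over 12997 entries with a mean FPKM of at least 1. Tests were two-sided, with Benjamini-Hochberg adjustment over all of them and a threshold of 0.05. SE is |log2 fold change| over √F. The 178 entries without a gene name stayed in as loci. With 2 libraries a genotype, exact permutation p-values start at 0.333, so none was used. Intervals of summed counts are exact Poisson, and of ratios exact Clopper-Pearson, at 95%, scaled by library totals (scipy 1.17.1). No library was a duplicate: chi-square over degrees of freedom was 6.05 to 13.3 for the 6 pairs. Alternatives used DESeq2 1.42.0, limma 3.58.1, other scalings, other filters and fits without 1 library. The reported fit had 2 residual degrees of freedom, to which edgeR added 8.39 prior ones estimated over the genes tested. Its p-values and 95% intervals rest on both.

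All 9 members are named. From each of the other 8 lists the rule takes genes past the threshold, or else the gene of smallest p and the gene of highest mean FPKM. The members and lists were chosen with earlier results of these data known. One gene was left out of the lists and of every count over them. Correlations across libraries were not computed, since there are 4.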

Additional observations from a re-analysis of the deposited data

How the results depend on the processing

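Of the 4 tested regulators, 0 passed under each of the 14 alternatives (edgeR, DESeq2 or limma), and 0 had an unadjusted p under 0.05 in any of them. Without the filter 0 of all 9 passed (Eomes at -0.97 ± 0.85, edgeR adjusted p = 0.880) and with filterByExpr 0 of 6. Gadd45g and Hes6 kept their direction in all 14. Leaving out 1 library moved Gadd45g between 0.07 and 0.15, Hes6 between 0.03 and 0.07, Btg2 between -0.20 and 0.021 and Insm1 between -0.20 and 0.10; Btg2 turned to 0.021 without KO replicate 2 and Insm1 to 0.10 without WT replicate 2. The median of the tested regulators was -0.0037 in the reported fit, 0.0080 in limma on log2(FPKM + 1), -0.015 at a mean FPKM of at least 5, 0.028 with filterByExpr (6 genes), -0.046 without the filter (9 genes), and 0.0050 to 0.053 without 1 library. The cause was not tested.

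Genes called numbered 9 in the reported fit, 4 in limma on log2(FPKM + 1), 3 with a pseudocount of 0.1, and 31 without the filter. On the autosomes alone edgeR called 0, with 726 at an unadjusted p under 0.05, and DESeq2 called 2 autosomal genes in the fit of all chromosomes. Leaving out a WT library gave 86 calls (replicate 1) or 51 (replicate 2), and leaving out a KO library 22 (replicate 1) or 15 (replicate 2); these fits take the single remaining library to vary as the other genotype does. The labels do not tie same-numbered libraries together, and the correlation of their deviations over genes was 0.09, so the numbers were not used as pairs. That correlation is over all genes tested and cannot exclude a pattern in a subset. The immediate early genes summed higher in replicate 1 of both genotypes. With the replicate number as a block 24 genes were called and 0 of the 4 regulators, Gadd45g having the smallest edgeR adjusted p of 0.490. Depth limits the 5 low genes: 1 to 174 counts in all 4 libraries together.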
